A study of Homo sapiens with 6 samples.

Results

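The genes described are 10 transcription factors and pre-B genes of the B lymphoid lineage, chosen by name: Pax5, Ebf1, Ikzf1, Ikzf3, Tcf3, Vpreb1, Igll1, Dntt, Blnk and Bach2. Of these 10, 8 are in the deposited table of 22413 mouse genes, and Dntt and Blnk are not analysed here. The table has 0 genes listed at 0 in all 6 samples, so a gene outside it may have had no fragments, which was not tested, and the shares below cover listed genes only. The table holds mRNA sequencing of BaF3-T315I cells, in 3 control samples and in 3 samples that received 1.1 µM I13 over 48 h. The parental BaF3 line is murine, interleukin-3-dependent and usually described as pro-B. The cells of both groups were stably transfected with BCR-ABL carrying the T315I mutation, which confers resistance to imatinib. I13 is an inhibitor of histone deacetylases, the enzymes that remove acetyl groups from histones. Values of the 3 samples of a group are given in the order of replicates 1, 2 and 3. The labels describe the comparison group as treated with "control", without naming a vehicle or a time. They do not say whether the line is a single clone or whether the samples came from separate cultures. P-values therefore measure the spread between these 6 samples only.

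B cell development is driven by a small set of factors that act in sequence. The E protein E2A, which Tcf3 encodes, and the Ikaros factors open the lymphoid program, EBF1 and then PAX5 commit the cell to the B lineage, and BACH2 represses myeloid and plasma cell programs. Among the genes of early B cells are Vpreb1 and Igll1, whose products together form the surrogate light chain of the pre-B cell receptor, Blnk, whose product carries the receptor's signal, and Dntt, which encodes the DNA polymerase TdT of the earlier pro-B stage.

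Among the 8 genes in the table, Tcf3 was the only one with a mean FPKM of 0.5 or more, the level required for a test, where FPKM is the number of fragments scaled to the length of the transcript and to the fragments mapped in the library. The other 7, Pax5, Ebf1, Ikzf1, Ikzf3, Vpreb1, Igll1 and Bach2, had a mean FPKM below 0.1 over the 6 samples and are called near zero. Genes near zero were 87.5% of the listed B lineage genes, 30.1% of all listed genes and 22% of the listed protein-coding genes. The libraries held between 16762119 and 17722950 fragments. Every FPKM in the table could be turned back into the smallest whole number of fragments that fits all 6 samples. For genes above 0 in few libraries, the fragment counts given here are therefore minima. By these smallest fitting counts, 5 of the 8 genes rested on at most 2 fragments over all 6 libraries together, against 8.56% of the protein-coding genes.

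Pax5, which fixes B cell identity, was listed at 0 in the controls, at 0.00641 FPKM in I13 replicate 1 and at 0 in I13 replicates 2 and 3. The value above 0 stands for a single fragment, the smallest count that fits. On that scale, the absence of fragments in the 3 controls allows up to 3 fragments over the 3 libraries, or 0.0064 FPKM. This is a one-sided 95% limit that covers counting error alone. Ebf1, the factor that specifies the B lineage upstream of PAX5, was listed at 0 in all 3 controls, at 0.00612 FPKM in I13 replicate 2, again 1 fragment, and at 0 in the other two I13 samples. Neither gene was therefore seen in more than 1 of the 6 libraries, and no difference between the groups was detectable at this depth.

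Ikzf1, which encodes Ikaros, had 1, 3 and 1 fragments in the controls and 3, 5 and 0 fragments after I13. Its FPKM was 0.00977, 0.0295 and 0.00982 in the controls and 0.0295, 0.0516 and 0 after I13, so the groups overlapped. The 5 fragments of the control group had an exact two-sided Poisson interval (95%) of 1.62 to 11.7 and the 8 fragments of the I13 group one of 3.45 to 15.8, intervals that cover counting error only. Ikzf3, which encodes the related factor Aiolos, had 1 fragment in I13 replicate 1, at 0.013 FPKM, and was listed at 0 in the other 5 samples. Bach2 had 1 fragment in control replicate 1, at 0.00568 FPKM, and 1 in I13 replicate 2, at 0.006 FPKM.

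The surrogate light chain genes were as scarce. Vpreb1 was listed at 0, 0.051 and 0.051 FPKM in the controls and at 0, 0.107 and 0.0513 FPKM after I13. These values stand for 2 fragments in the control group and 3 in the I13 group. Igll1 had 1 fragment, in control replicate 3, at 0.0262 FPKM, and was listed at 0 in the other 5 samples. The 7 near-zero genes together had 2, 4 and 3 fragments in the controls and 5, 9 and 1 fragments after I13, so that I13 replicate 3 was the lowest and I13 replicate 2 the highest of all 6 samples.

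**Figure D1:**
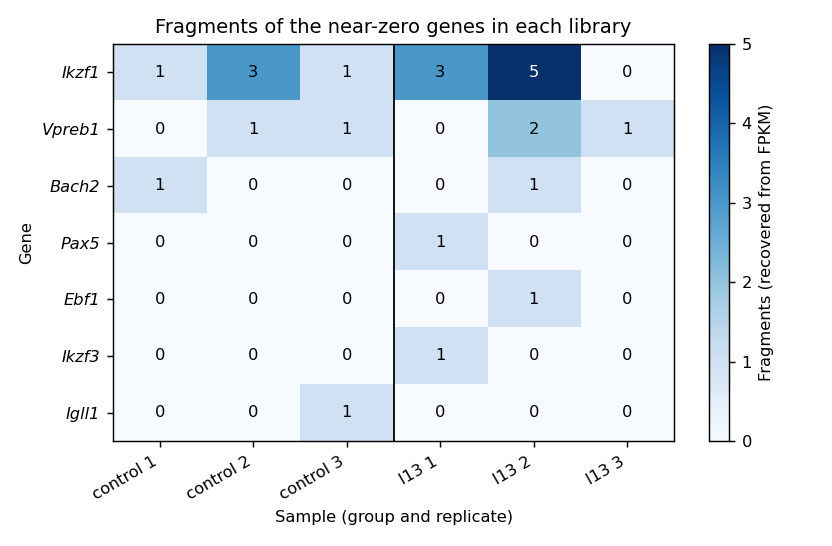
Fragments, recovered from the deposited FPKM, of the 7 near-zero genes (rows) in each of the 6 libraries (columns), with controls left of the vertical line and I13 samples right of it. Ikzf1 reached 5 fragments in I13 replicate 2, the highest count shown, and Pax5, Ebf1, Ikzf3 and Igll1 each had 1 fragment in a single library.

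Tcf3, which encodes the E2A proteins E12 and E47, stood apart from the other 7 genes at 22.9, 27.0 and 23.2 FPKM in the controls and 20.3, 22.7 and 20.0 FPKM after I13. These levels rested on 1414 to 1924 fragments per library and placed Tcf3 at rank 2593 among the 22413 genes by mean FPKM. Every I13 sample lay below every control, a separation in that direction that 15.4% of all tested genes had. The mean was 24.4 ± 2.31 FPKM in the control and 21.0 ± 1.45 FPKM after I13 (SD, n = 3 each). The log2 fold change, on the scale of log2(FPKM + 0.1), was -0.21 (standard error 0.104, 95% confidence interval -0.46 to 0.03, adjusted p = 0.324 from limma).

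Tcf3 was thus not called, a call being an adjusted p below 0.05 with a log2 fold change of 0.58 or more in either direction, which 0.0411% of the 12163 tested genes met. In a second fit the replicate numbers were used as a block. They were assumed to pair the control and I13 samples, which the labels do not state. There 1.89% of the tested genes were called. Tcf3 was not among them, with an adjusted p of 0.128 from limma. Tcf3 was the only 1 of the 8 B lineage genes in either fit, so the other 7 could not be called. Its unadjusted p from limma was 0.0815 without the block and 0.0256 with it. An unadjusted p below 0.05 was reached by 18.6% of all tested genes in the first fit. In the second, 14.8% reached it in the lower direction. The gene Tcf7l1, for which Tcf3 is an older name, is listed separately with a mean of 2.20 FPKM, and the values given here belong to the identifier ENSMUSG00000020167.

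E proteins bind DNA as dimers, and the ID proteins block them by pairing with them, while TAL1 and LYL1 are partners used in stem, erythroid and other blood cells. The list of these genes had 11 names, of which 9 are in the table and were tested. Tcf3 was the most abundant of the 3 E protein genes in every sample, at 58.4% to 65.6% of their summed FPKM. Tcf12, which encodes HEB, was at 11.6 ± 0.745 FPKM in the control and 11.7 ± 0.806 FPKM after I13 (SD, n = 3 each). Tcf4, which encodes E2-2, was at 1.74 ± 0.255 and 1.75 ± 0.262 FPKM. Their log2 fold changes were 0.02 (95% confidence interval -0.22 to 0.25) and 0.01 (-0.44 to 0.46).

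Id2 had 22.6, 5.70 and 23.4 FPKM in the controls and 51.5, 14.0 and 36.3 FPKM after I13. I13 replicate 2 was below control replicates 1 and 3, so the groups overlapped. Still, each I13 sample was above the control of the same number. Its log2 fold change was 1.04, with an adjusted p of 0.427 from limma without the block and 0.0384 with it, so that Id2 was elevated in the second of these fits, as were 1.36% of all tested genes. Without control replicate 2 the log2 fold change was 0.37, without I13 replicate 1 it was 0.64 and without I13 replicate 2 it was 1.58, each in the fit without the block. When the samples of replicate 1, 2 or 3 were left out of the blocked fit, the adjusted p was 0.0792, 0.291 and 0.0722, respectively. Id1, the more abundant of the pair, had 95.8, 56.4 and 44.7 FPKM in the controls and 91.0, 126 and 69.8 FPKM after I13, a log2 fold change of 0.576, just under the threshold (limma's adjusted p = 0.364, blocked 0.166). The 2 ID genes together had 3.35, 1.51 and 1.86 times the summed FPKM of the 3 E protein genes in the controls, and 4.09, 3.88 and 3.26 times after I13.

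Lyl1 was the most abundant gene of this list, with 149, 148 and 139 FPKM in the controls and 110, 111 and 104 FPKM after I13. All I13 samples were below all controls. Its log2 fold change was -0.43 (standard error 0.079, 95% confidence interval -0.61 to -0.24), with an adjusted p of 0.101 from limma without the block and 0.0384 with it. At that size it missed the fold change threshold of a call, and without the samples of replicate 1, 2 or 3 the blocked adjusted p was 0.0667, 0.305 and 0.096. In the blocked fit 2.99% of all tested genes had an adjusted p below 0.05. Tal1 was at 92.8 ± 21.6 FPKM in the control and 99.9 ± 20.4 FPKM after I13 (SD, n = 3 each). Lmo2 and Ldb1, which join these factors into complexes, had log2 fold changes of 0.06 and -0.04.

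**Figure D2:**
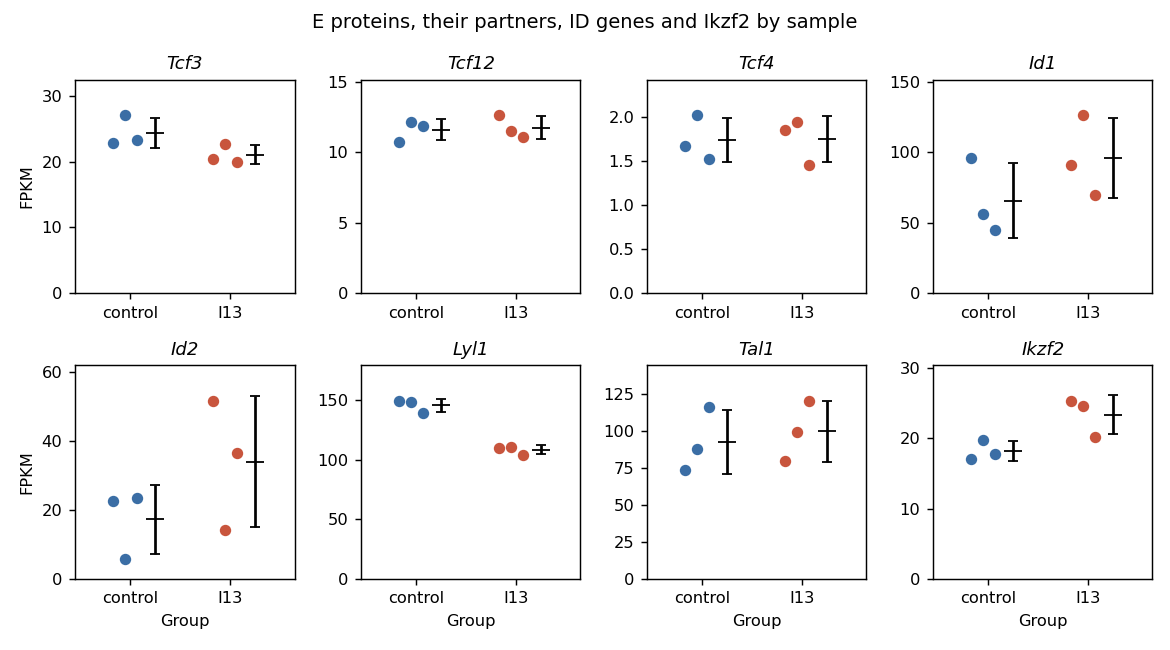
FPKM (vertical axes, each from 0) of the E protein genes Tcf3, Tcf12 and Tcf4, the ID genes Id1 and Id2, the partners Lyl1 and Tal1, and the Ikaros family gene Ikzf2 in the 3 control (blue) and 3 I13 (red) samples, with replicates 1 to 3 from left to right and the mean ± SD in black. Control and I13 points do not overlap for Tcf3, Lyl1 and Ikzf2, and for Lyl1 they lie between 139 and 149 FPKM in the control and between 104 and 111 FPKM after I13.

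The Ikaros family members, zinc finger factors that can pair with each other, differed widely in level. Ikzf2, which encodes Helios, was the most abundant, with a mean of 20.8 FPKM over the 6 samples next to 0.0217 FPKM for Ikzf1. It had 17.0, 19.8 and 17.8 FPKM in the controls and 25.3, 24.6 and 20.2 FPKM after I13. All I13 samples were above all controls, as for 9.82% of the tested genes. The log2 fold change was 0.36 (95% confidence interval 0.08 to 0.64, limma's adjusted p = 0.186, blocked 0.0941). Ikzf4, which encodes Eos, was at 1.69 ± 0.0665 FPKM in the control and 2.16 ± 0.547 FPKM after I13 (SD, n = 3 each), with a log2 fold change of 0.30 (adjusted p = 0.461 from limma). Ikzf5 was low, at 0.109 to 0.228 FPKM in the 6 samples, and was not tested.

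Other factors known from B lymphopoiesis were present in part. Of 26 names, 21 are in the table, 13 were tested and 8 were near zero. The near-zero genes were Foxo1, Spib, Irf4, Irf8, Ets1, Bcl6, Gfi1 and Erg, each of which acts in early or later B cells and also in other cells. The most abundant factors of the list were Cbfb, the partner of RUNX proteins, at a mean of 64.5 FPKM over the 6 samples, Nfkb1 at 42.5 FPKM and Spi1, which encodes PU.1, at 16.5 FPKM. The median log2 fold change of the 13 genes was -0.02, next to -0.005 over all tested genes. None of the 13 was called by limma without or with the block. At an unadjusted p below 0.05 was 1 gene, higher after I13, where the share of all genes was 7.79%. This was Zeb2, a zinc finger repressor, at 2.61 ± 0.466 FPKM in the control and 3.49 ± 0.464 FPKM after I13 (SD, n = 3 each), with a log2 change of 0.41 (adjusted p = 0.265 from limma). Rel and Spi1 followed with 0.32 and 0.29.

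The pre-B cell receptor needs the signalling chains CD79A and CD79B, and both genes were well above the level of the surrogate light chain. Cd79a had 24.8, 14.1 and 25.9 FPKM in the controls and 23.3, 24.9 and 27.5 FPKM after I13, with control replicate 2 lower than the other 5 samples. Cd79b was at 5.28 ± 1.69 FPKM in the control and 4.77 ± 1.75 FPKM after I13 (SD, n = 3 each). Their log2 fold changes were 0.27 and -0.15 (adjusted p = 0.559 and 0.824 from limma). Vpreb3 was low, between 0 and 0.396 FPKM.

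Of the 30 names on the list of the receptor and its signalling genes, 25 are in the table and 21 were tested, with a median log2 fold change of 0.06. Without the block 0 of the 21 were called by limma, and at an unadjusted p below 0.05 there were 1 higher gene, Pik3ap1, and 1 lower gene, Pik3cd, against 7.79% and 10.8% of all genes in those directions. With the block 1 of the 21 was elevated, next to 1.36% of all genes. This was again Pik3ap1, which encodes BCAP, an adaptor that links the B cell receptor to phosphoinositide 3-kinase. It had 10.4, 9.24 and 15.3 FPKM in the controls and 18.3, 18.2 and 20.4 FPKM after I13, without overlap. Its log2 fold change of 0.73 had a standard error of 0.184. The adjusted p from limma was 0.126, falling to 0.0478 in the blocked fit. Leaving the samples of replicate 1, 2 or 3 out of the blocked fit gave an adjusted p of 0.102, 0.311 and 0.0788.

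Pik3cd, which encodes the kinase subunit p110δ, had 49.6, 50.7 and 60.8 FPKM in the controls and 34.4, 43.6 and 46.1 FPKM after I13. The log2 fold change was -0.38 (limma's adjusted p = 0.214, blocked 0.0663). Pik3r1, the regulatory subunit, had 5.565, 3.933 and 3.997 FPKM in the controls and 9.12, 4.75 and 4.60 FPKM after I13. Its log2 fold change of 0.39 (adjusted p = 0.489 from limma) was 0.07 without I13 replicate 1. The most abundant genes of the list were Btk, the kinase downstream of BLNK, at a mean of 127 FPKM over the 6 samples and Grb2, a general adaptor, at 68.0 FPKM. Btk was at 118 ± 17.6 FPKM in the control and 136 ± 13.5 FPKM after I13 (SD, n = 3 each), with a log2 fold change of 0.21 (adjusted p = 0.413 from limma).

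V(D)J recombination joins antigen receptor gene segments and is finished by general DNA end joining. Of 15 names on this list, 12 are in the table and all 12 were tested, 7 of them higher and 5 lower after I13, with a median log2 fold change of 0.10. By limma 0 were called without or with the block. Without the block 0 had an unadjusted p below 0.05, and with it Atm and Xrcc5, the latter named after its values were seen, were higher and Hmgb2 was lower, next to 13.2% and 14.8% of all tested genes. Hmgb2, a chromatin protein that assists the cut, was the most abundant at 235 ± 51.2 FPKM in the control and 192 ± 33.2 FPKM after I13 (SD, n = 3 each). The Ku subunit gene Xrcc6 and Hmgb1 followed with means of 20.2 and 22.8 FPKM over the 6 samples. The largest log2 fold changes were 0.40 for Atm, the kinase that senses DNA breaks, 0.35 for Xrcc4, a ligase cofactor, and -0.28 for Hmgb2 (adjusted p = 0.305, 0.361 and 0.454 from limma).

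BACH proteins bind DNA with small MAF proteins and repress genes such as those of heme breakdown and iron storage. While Bach2 was near zero, the related Bach1 was at 5.33 ± 0.467 FPKM in the control and 6.34 ± 0.940 FPKM after I13 (SD, n = 3 each), with a log2 change of 0.24 (adjusted p = 0.394 from limma). The list of partners and repressed genes also holds Bach1 itself and the genes of other factors, Nfe2, Nfe2l1 and Nfe2l2. Its counts are therefore not those of BACH repressed genes alone. Of the 12 genes in the table, all tested, 9 were higher and 3 lower after I13. The median log2 fold change was 0.23. Without the block 0 were called by limma. At an unadjusted p below 0.05, Ftl1 was higher and Mafg, a small MAF gene named after its values were seen, was lower. The shares of all tested genes in those directions were 7.79% and 10.8%. In the blocked fit 1 of the 12 was elevated, next to 1.36% of all tested genes. There 7 higher genes, Bach1 and Nfe2l2 among them, and 1 lower gene, again Mafg, had an unadjusted p below 0.05. The shares of all tested genes were 13.2% and 14.8%.

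Ftl1, the ferritin light chain, was the gene elevated with the block. It had 109, 80.8 and 194 FPKM in the controls and 172, 187 and 307 FPKM after I13, so the groups overlapped while each I13 sample was above the control of the same number. The log2 fold change was 0.84 (limma's adjusted p = 0.255, blocked 0.0447), and it was 0.56 without control replicate 2, under the fold change threshold. Without the samples of replicate 1, 2 or 3 the blocked adjusted p was 0.065, 0.227 and 0.0838. A closely related copy, Ftl1-ps1, is listed at a mean of 69.9 FPKM, and fragments may be split between the copies. Hmox1, heme oxygenase, was at 43.3 ± 10.1 FPKM in the control and 63.4 ± 17.4 FPKM after I13 (SD, n = 3 each), with a log2 change of 0.54 (limma's adjusted p = 0.277, blocked 0.0911). The log2 fold change of Fth1, the ferritin heavy chain and the most abundant gene of the list at a mean of 1052 FPKM, was 0.32 (adjusted p = 0.285 from limma).

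**Figure D3:**
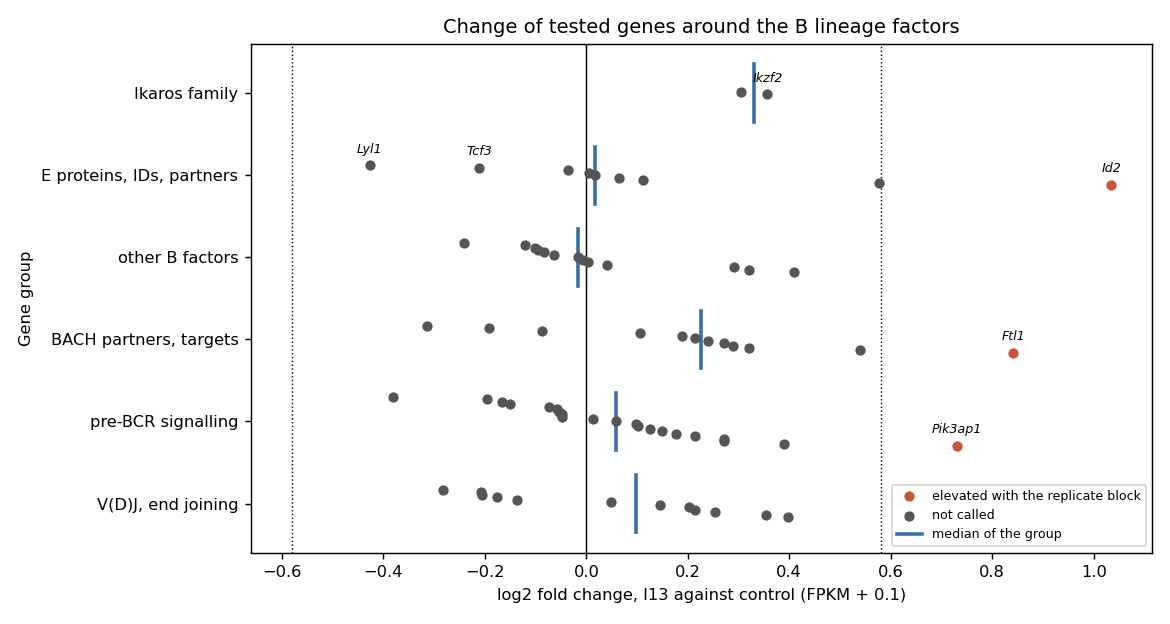
Log2 fold change of I13 against control on the scale of log2(FPKM + 0.1) for each tested gene of 6 gene groups (points), with the median of each group as a blue bar and the fold change threshold of 0.58 in either direction as dotted lines. Id2, Ftl1 and Pik3ap1, in red, were elevated in the fit with the replicate block and not in the fit without it, and Tcf3 and Lyl1 lay at -0.21 and -0.43.

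The cells were set against markers of B and other blood cells. Of 20 B cell marker names, 11 are in the table. Cd79a, Cd79b and the coreceptor gene Cd72 were tested, Vpreb3 was low and 7 were near zero: Cd22, Fcrla, Spib, Cr2, Fcer2a, Il7r and Cd24a. The summed level of the B cell markers was 34.6, 22.4 and 38.0 FPKM in the controls and 32.5, 33.9 and 39.2 FPKM after I13, of which Cd79a made the most. The defining markers of a pro-B cell, Pax5, Ebf1, Vpreb1, Igll1 and Il7r, thus were at or near 0, and Cd79a and Cd79b were not.

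Markers of other lineages reached higher levels. Gata2, a factor of stem, mast and megakaryocyte cells, had a mean of 191 FPKM over the 6 samples. Itga2b, an integrin of megakaryocytes and progenitors, was at 113 FPKM, Tfrc, the transferrin receptor, at 79.1 FPKM, and Gata1, the erythroid and mast cell factor, at 51.3 FPKM. The 11 erythroid and megakaryocyte markers in the table summed to 198, 210 and 317 FPKM in the controls and to 263.4, 271.1 and 315.3 FPKM after I13. The 14 myeloid and mast cell markers summed to 269, 246 and 314 FPKM in the controls and to 219, 244 and 319 FPKM in the I13 samples, led by Gata2 and followed by Fcgr3 and Cebpe with means of 51.1 and 10.1 FPKM. Of these 14, 6 were near zero, among them Mpo and Elane. Among the 12 T cell markers 8 were near zero, and the summed level of 173, 72.1 and 131 FPKM in the controls and 234, 133 and 249 FPKM after I13 came from Lat and Il2ra, which other blood cells also use, while Lck, a T cell kinase, had a mean of 0.194 FPKM. Il2ra had 96.8, 5.89 and 32.3 FPKM in the controls and 166, 46.8 and 127 FPKM after I13. The groups overlapped, and each I13 sample was above the control of the same number. Its log2 fold change was 1.91 (limma's adjusted p = 0.333, blocked 0.0606), and 0.83 without control replicate 2. Without the samples of replicate 1, 2 or 3 the blocked adjusted p of Il2ra was 0.0426, 0.305 and 0.132, so that it was elevated in the first of these fits. It was also elevated in the blocked voom fit of the recovered fragments, with a log2 fold change of 1.79 and an adjusted p of 0.00972.

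The marker genes were also compared between the groups. Of the 7 erythroid and megakaryocyte markers tested, 6 were higher after I13, counting Hbb-bt, whose direction was fixed by the filter as given below. Hba-a1, Klf1 and Tfrc, 3 of the 6, passed an unadjusted p of 0.05 without the block, where 0 were called by limma. Over all tested genes, 5981 of 12163 were higher and 7.79% were higher at that p. With the block 1 of the 7, Hba-a1, was elevated, next to 1.36% of all tested genes. There 4 of the 7 were higher at an unadjusted p below 0.05, next to 13.2%. Tfrc had a log2 fold change of 0.64 (limma's adjusted p = 0.236, blocked 0.0934), and 0.39 without control replicate 1. Klf1, an erythroid factor, was at 8.38 ± 2.04 FPKM in the control and 14.6 ± 1.27 FPKM after I13 (SD, n = 3 each), with a log2 change of 0.82 (limma's adjusted p = 0.113, blocked 0.059). The hemoglobin gene Hba-a1 had 1.18, 0.210 and 0.559 FPKM in the controls and 5.66, 2.94 and 2.11 FPKM after I13, on 3 to 81 fragments per library. Its log2 fold change was 2.40 (limma's adjusted p = 0.116, blocked 0.0384), and without the samples of replicate 1, 2 or 3 the blocked adjusted p was 0.0812, 0.227 and 0.0788. The near-identical copy Hba-a2 is not analysed here, so the fragments of Hba-a1 may include it or be split with it. Hbb-bt, also among the 6 higher genes, had 54 fragments in I13 replicate 2 and at most 2 in each other library. It reached the level required for a test only through that library, so its place among the 6 carries no information. Of the 7 myeloid and mast cell markers tested, 6 were higher on the log2 scale, with 0 calls in either fit. One of these, Cpa3, a mast cell protease named after its values were seen, had a lower mean FPKM after I13, at 3.53 next to 3.95 in the control. The log2 fold change of Lyz2 was 0.77, and 0.47 without I13 replicate 2. That of Cd68 was 0.47, and 0.18 without I13 replicate 3. That of Prtn3 was 0.46, and 0.82 without I13 replicate 3 or 0.22 without I13 replicate 2. The 3 B cell markers tested had log2 fold changes from -0.15 to 0.27. In such bulk samples fewer cells of a type and less RNA per cell cannot be told apart, and the part of these markers in the values of Tcf3, Id2 and Ftl1 was not tested.

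**Figure D4:**
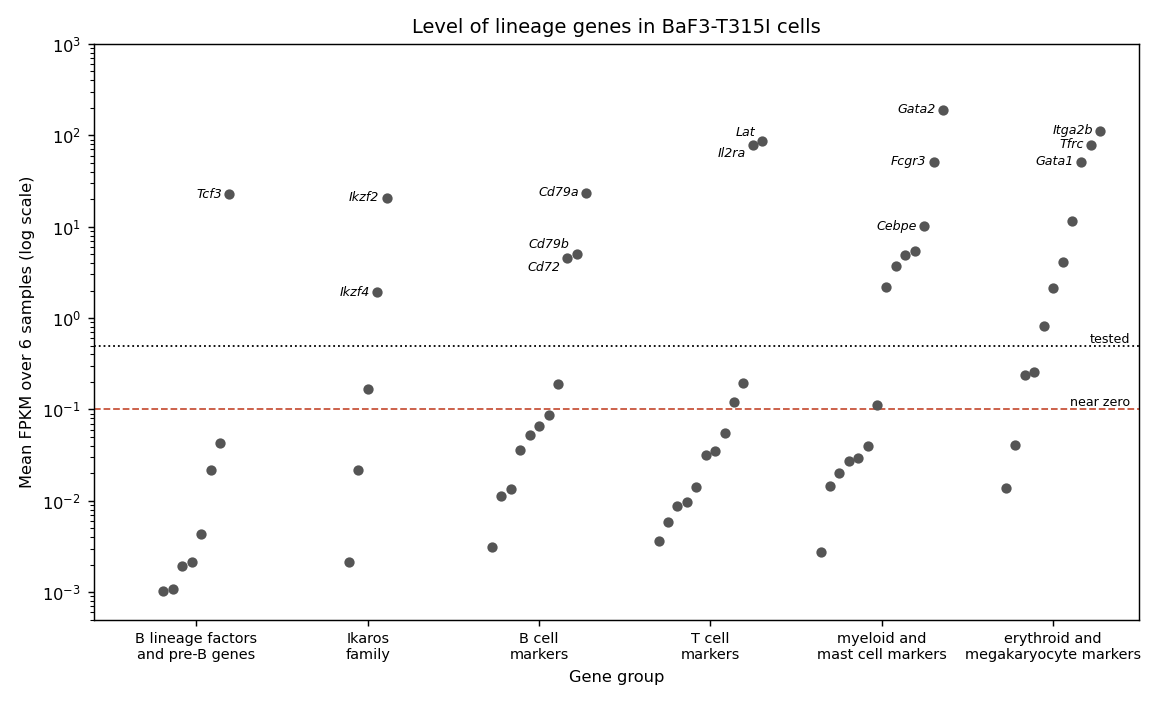
Mean FPKM over the 6 samples (logarithmic axis) of each listed gene (points) among the B lineage factors and pre-B genes, the Ikaros family and the markers of 4 lineages, with the near-zero limit of 0.1 as a dashed line and the test limit of 0.5 as a dotted line. Tcf3 is the only B lineage factor or pre-B gene of the first group above either line, at 22.7 FPKM, while Gata2 reaches 191 FPKM.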

How the data were processed

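The authors deposited FPKM per gene and sample, without pooling. Their processing notes name Trimmomatic, HISAT2, Cufflinks and HTSeq, and hg38, a human build, although the identifiers are mouse Ensembl genes, and the labels call the organism human. No mouse sequence or coordinates were used here. Samples were grouped by title, and 0 columns lacked a sample.

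FPKM were turned back into whole fragments (tolerance 0.03), a step that recovered 98.36% of 5719 genes when tested on simulated data. Genes whose FPKM averaged 0.5 or more were compared as log2(FPKM + 0.1) with limma 3.58.1 (R 4.3.3, eBayes with trend, Benjamini-Hochberg). On simulated data, 140 of 200 genes changed by a log2 of 1 were called without the block, with 6 false calls. Same-numbered samples correlated in their deviations from group means (0.15, 0.30 and 0.22), and differently numbered ones had correlations from -0.26 to 0.05. The numbers were therefore taken to pair the samples. These correlations come from the same values that the blocked fit tests and from few samples, so they cannot establish the pairing. The labels give the numbers only.

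Members and lists were chosen with earlier results of these data known. Named are all members, list genes with an adjusted p below 0.05 in either fit and, per list, the 3 largest changes and 3 highest levels, together with all Ikaros, E protein and ID genes. Marker genes near zero are given by count or name. Python 3.11.15 and matplotlib 3.10.9 drew the figures. Alternatives were other pseudocounts, filters, scalings, voom, eBayes without trend, the block and leaving out samples.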

Additional observations from a re-analysis of the deposited data

How the results depend on the processing

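Tcf3 was not called under any of the 19 alternatives. It was lower after I13 in all 19, with a log2 fold change between -0.267 (without I13 replicate 2) and -0.135 (without control replicate 2) and an adjusted p from limma between 0.102 and 0.589. The 7 near-zero genes were tested only without a filter, where 0 were called and they had log2 differences from -0.11 to 0.15 and a lowest unadjusted p of 0.451 from limma. The 5 genes called over the whole table, named after their values were seen, were Tns1, lower, and Mir674, Ccr1, Gm12606 and Ggh, higher. This number was 2 with a pseudocount of 0.01 and with median-ratio scaling, and 8 when no filter was set or the eBayes trend was left out. It was 230 with the replicate block and 503 with voom on the recovered fragments and the replicate block. Leaving out 1 sample gave 0 to 0 calls without the block, and with the block there were 83, 0 and 0 calls without the samples of replicate 1, 2 or 3, a setting chosen after seeing the data. The cause was not tested. On log2 FPKM with all samples, the block changed the calls of Id2, Pik3ap1, Ftl1 and Hba-a1 and moved the adjusted p of Lyl1 below 0.05, and it changed no other call among the genes named. With voom and the block, Il2ra, Klf1 and Tfrc were elevated too, with adjusted p of 0.00972, 0.0161 and 0.0265 from limma. Hbb-bt also met the call there (limma's adjusted p = 0.0201), but it passed the filter only through I13 replicate 2. No conclusion is therefore drawn from that call. On log2 FPKM without the block, the log2 fold change of Hbb-bt was 2.31, and 0.84 without that sample. By the smallest counts that fit, the 7 near-zero genes had at most 5 fragments in any library, which limits what a comparison of them can show.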

Other observations

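Among the receptor signalling genes too low for the test, Rasgrp3, an activator of RAS downstream of the B cell receptor, was singled out after its values were seen. It had 10, 4 and 11 fragments in the controls and 70, 35 and 23 fragments after I13, or 0.115, 0.0461 and 0.127 FPKM against 0.807, 0.424 and 0.267 FPKM, without overlap. Without the filter its log2 fold change was 1.54, with an unadjusted p of 0.00929 and an adjusted p of 0.228 from limma. Cd22, an inhibitory coreceptor of B cells, also singled out then, had 0 fragments in each control and 2, 3 and 2 fragments after I13.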
